A study of Mus musculus with 18 samples.

Results

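Cholesterol synthesis and its control by the transcription factor SREBP2 were followed through 28 genes, chosen by name for their place in the pathway. The table of liver RNA abundance lists 37303 genes, of which 27 members were found by their gene symbol and the other, *Msmo1*, was found by its Ensembl identifier under the older symbol *Sc4mol*. All 28 had an estimate with the status OK in all 6 groups. The list does not hold every gene of the pathway. Poly-A RNA-Seq had been run on livers of 18 C57BL/6J mice of 3 genotypes, namely wild type mice (WT) and mice that lacked both copies of *Gcn2* (Gcn2-/-) or of *Atf4* (Atf4-/-) in every tissue. Each genotype had received 8 daily intraperitoneal injections of asparaginase (ASNase), a drug that depletes circulating asparagine and, less strongly, glutamine, at 3 IU per g body weight, or of PBS, with 3 mice in each of the 6 groups. By the labels, livers were collected 7.5 h after the last injection and the mice were 8 to 16 weeks old, while the design text gives 8 to 12 weeks. Males numbered 1 of 3 in WT PBS, Gcn2-/- PBS and Gcn2-/- ASNase, and 2 of 3 in WT ASNase, Atf4-/- PBS and Atf4-/- ASNase, so that treatment in WT mice and genotype in several comparisons cannot be fully told apart from sex.

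Each gene has 1 value per group, in FPKM, a read abundance scaled to transcript length and library depth, which Cuffdiff estimated from the 3 libraries of a group together, with a lower and an upper bound. No value of a single library was used here. Values therefore carry the Cuffdiff interval in place of an SD, and no difference comes with a test over replicates or a p-value. Differences are given as log2(FPKM + 0.1), a scale that shrinks the differences of genes with little RNA. A gene is called higher or lower when FPKM was over 3 in either group, the log2 difference was over 1.5 in size, and the intervals of the values did not overlap. Over the 28 genes, the median half-width of the interval lay between 52.9% (Gcn2-/- PBS) and 61.8% (Gcn2-/- ASNase) of the value. Between 26 and 28 of the genes passed the FPKM limit in a comparison, with *Ggps1* and *Mbtps2* the ones that fell short. The lower bound was 0 in every group for 5 genes, *Mvd*, *Fdft1*, *Lss*, *Scap* and *Insig2*, so that their intervals overlapped in every comparison and none of them could be called. By summed FPKM the gene of GCN2, *Eif2ak4*, lay at 2.31 and 2.96 in the Gcn2-/- groups against 2.19 to 3.14 in the others and did not separate them, and *Atf4* lay at 32.3 and 29.3 in the Atf4-/- groups against 50.4 to 68.1. Summed FPKM does not resolve single exons. From read density, the authors reported an exon of *Gcn2* as absent in Gcn2-/- mice and *Atf4* as absent in Atf4-/- mice. They also assessed *Atf4* by RT-qPCR. Groups are named by their labels.

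Cells build cholesterol from acetyl-CoA. In the mevalonate steps, acetyl groups are joined and turned into the isoprenoid farnesyl diphosphate, and in the squalene and sterol steps 2 farnesyl units are joined to squalene, which is oxidised, closed into lanosterol and trimmed to cholesterol. SREBP2, encoded by *Srebf2*, raises transcription of most of these enzymes. It is held in the endoplasmic reticulum by SCAP and the sterol-sensing INSIG proteins, and when membrane sterol is low SCAP carries it to the Golgi, where the proteases encoded by *Mbtps1* and *Mbtps2* release its active part. The kinase GCN2 senses amino acid shortage and phosphorylates eIF2, which favours translation of the transcription factor ATF4. The liver is a main site of cholesterol synthesis.

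Promoter sequence was read from the RefSeq windows on GRCm38.p6, which run from 250 bases before to 50 bases after each start, and 24 of the 28 members matched, with 30 windows. *Fdft1*, *Fdps*, *Sqle* and *Stard4* had no window. Letters were searched on both strands. CCAAT was found in 20 of the 24 members (37.4% of all 32817 windows and 37.6% of the 9043 windows of genes over an FPKM of 3), GGGCGG in 21 (35.6% and 61.6%), and CACGTG in 5 (7.15% and 10.3%). The percentages in brackets, here and below, are of windows and not of genes. Of the 30 member windows, 66.7% held CCAAT, 80% GGGCGG and 20% CACGTG. The sterol element spelled TCACNCCAC was found in 1 member, *Hmgcs1* (1.24% and 1.29%), and the shorter CACNCCAC, which lies inside the longer one, in 3, *Acat2*, *Hmgcs1* and *Insig1* (6.24% and 6.31%). TGATGCAA, a spelling of the composite element of ATF and C/EBP factors, was found in 1 member, *Insig2* (0.896% and 0.652%), at another of its starts than the one shown here. The *Insig1* match of CACNCCAC lies in annotated exon sequence that is not shown. A match of letters is a description and not a binding site. The stretches before the start that hold no annotated exon are shown for 3 enzymes and the INSIG pair, because *Hmgcs1*, *Pmvk* and *Insig1* were called lower after ASNase in Atf4-/- livers and *Sc5d* in both knockouts, and *Insig2* is the paralog of *Insig1*. They are written 5′ to 3′ on the strand of the gene, with capitals at the matches of the letters searched or of their reverse complements. They lie at chr13:119690101-119690350 (plus strand) for *Hmgcs1*, chr3:89454291-89454540 (plus) for *Pmvk*, chr9:42264301-42264550 (minus) for *Sc5d*, chr5:28071162-28071362 (plus) for *Insig1* and chr1:121332590-121332839 (minus) for *Insig2*.
Hmgcs1: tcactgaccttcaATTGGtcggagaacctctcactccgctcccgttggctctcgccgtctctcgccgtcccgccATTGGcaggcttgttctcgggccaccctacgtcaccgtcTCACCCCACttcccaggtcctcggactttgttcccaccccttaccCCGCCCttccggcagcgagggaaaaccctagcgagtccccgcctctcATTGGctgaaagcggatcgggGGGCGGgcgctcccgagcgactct
Pmvk: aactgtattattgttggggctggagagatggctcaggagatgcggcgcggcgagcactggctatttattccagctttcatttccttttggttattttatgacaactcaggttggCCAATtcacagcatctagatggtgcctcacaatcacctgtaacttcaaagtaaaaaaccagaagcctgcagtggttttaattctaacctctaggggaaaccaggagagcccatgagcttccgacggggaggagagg
Sc5d: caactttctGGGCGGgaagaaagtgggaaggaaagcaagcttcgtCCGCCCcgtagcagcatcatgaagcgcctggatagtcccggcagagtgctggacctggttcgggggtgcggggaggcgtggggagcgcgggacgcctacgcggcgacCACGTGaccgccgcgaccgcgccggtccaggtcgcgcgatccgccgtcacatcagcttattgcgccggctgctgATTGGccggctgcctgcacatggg
Insig1: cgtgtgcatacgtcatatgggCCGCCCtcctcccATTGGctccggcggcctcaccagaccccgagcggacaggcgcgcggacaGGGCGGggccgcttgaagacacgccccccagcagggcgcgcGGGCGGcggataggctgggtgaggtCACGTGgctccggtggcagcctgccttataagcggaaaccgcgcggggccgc
Insig2: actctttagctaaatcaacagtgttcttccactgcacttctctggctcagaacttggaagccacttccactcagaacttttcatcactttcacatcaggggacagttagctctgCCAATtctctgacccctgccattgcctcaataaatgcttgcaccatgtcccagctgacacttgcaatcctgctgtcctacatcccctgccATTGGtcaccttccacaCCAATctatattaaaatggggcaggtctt

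After ASNase, 10 of the 28 genes were called lower in Atf4-/- livers against PBS and 0 higher, where 7.37% of the 9485 eligible genes were called in either direction and 4.63% lower. The 10 were *Hmgcs1*, *Pmvk*, *Idi1* and *Fdps* of the mevalonate steps, *Tm7sf2*, *Nsdhl*, *Sc5d* and *Dhcr7* of the sterol steps, the sterol carrier *Stard4* and the regulator *Insig1*. Lower values by over 2-fold were found for 19 of the 28 (12.8% of eligible genes) and lower values of any size for 25 (46.2%). The median log2 difference of the 28 was −1.65, beside 0.08 over the eligible genes. In whole liver, fewer cells of a type and less RNA per cell cannot be told apart. The Atf4-/- ASNase group had the lowest of the 6 values for 23 of the 28 genes, which held for 30.7% of the 9815 genes ordered, and the 28 genes together made up 0.0726% of the summed FPKM there, against 0.238% in Atf4-/- PBS and 0.340% in WT PBS.

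**Figure D1:**
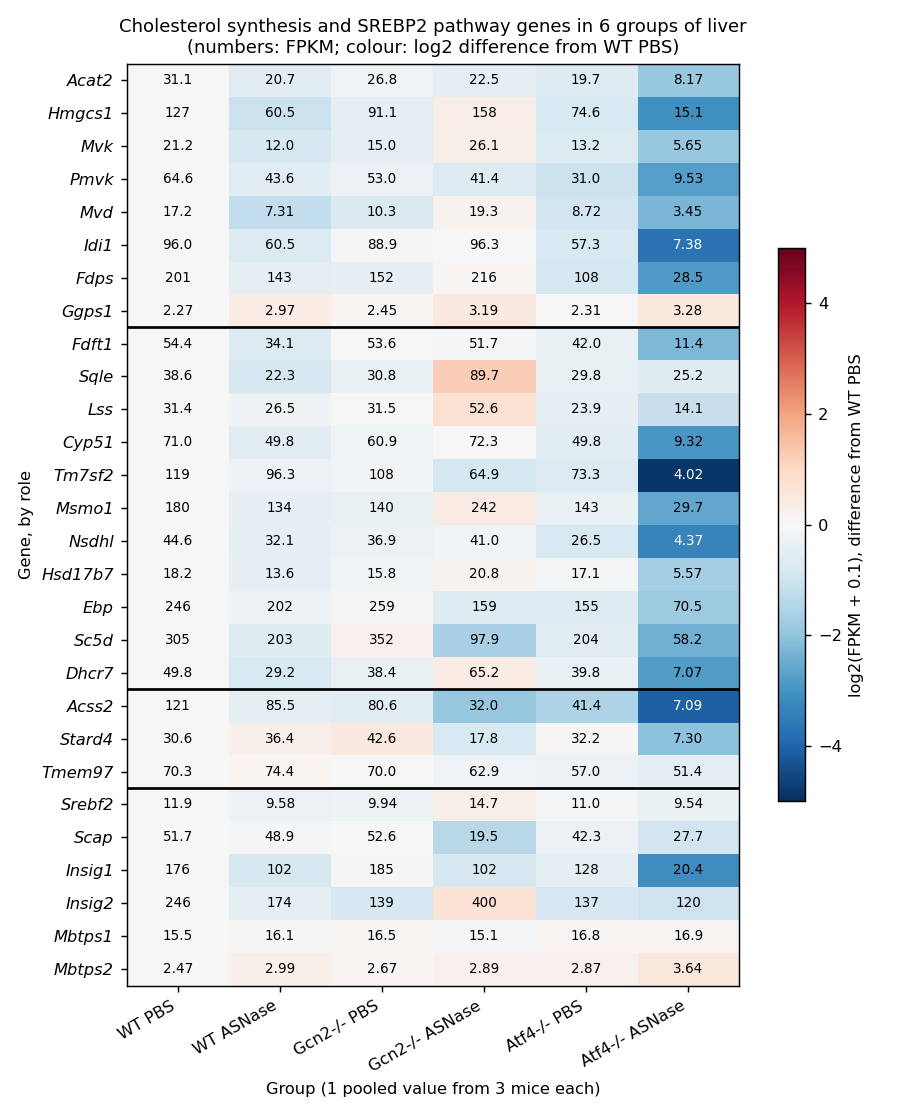
FPKM of the 28 genes (rows, ordered by role, with lines between the roles) in the 6 groups (columns, 1 pooled value from 3 mice each), with numbers giving FPKM and colour the log2(FPKM + 0.1) difference from WT PBS. The Atf4-/- ASNase column is the lowest of the row in 23 of 28 genes, and the Gcn2-/- ASNase column is the highest in 13 (30.7% and 18.7% of all genes ordered).

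In the mevalonate steps, 7 of 8 genes were lower after ASNase in Atf4-/- livers, all 7 by over 2-fold, and 4 were called. *Hmgcs1* (chr13:119690379-119708260), which makes HMG-CoA, had an FPKM of 127 under PBS and 60.5 after ASNase in WT, 91.1 and 158 in Gcn2-/-, and 74.6 and 15.1 in Atf4-/- livers. Its interval in the last group, 8.86 to 21.4, lay below those of all the other groups, of which the lowest began at 33.8, and the log2 ASNase response in Atf4-/- livers was −2.29. *Pmvk*, phosphomevalonate kinase, had values of 64.6 and 43.6 in WT, 53.0 and 41.4 in Gcn2-/- and 31.0 and 9.53 in Atf4-/- livers (PBS before ASNase here and in the pairs that follow), a log2 response of −1.69 in Atf4-/- livers. *Idi1*, which turns isopentenyl diphosphate into its isomer, lay at 96.0 and 60.5, 88.9 and 96.3, and 57.3 and 7.38, and fell by 2.94 on the log2 scale in Atf4-/- livers, a 7.75-fold lower FPKM. *Idi1* stood 184th from the lowest of 9485 eligible genes. *Fdps*, farnesyl diphosphate synthase, lay at 201 and 143, 152 and 216, and 108 and 28.5, with a log2 response of −1.92 in Atf4-/- livers. All 4 had their lowest value in Atf4-/- ASNase livers, and *Hmgcs1*, *Idi1* and *Fdps* had their highest in Gcn2-/- ASNase livers.

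The other mevalonate genes were not called in the Atf4-/- response. *Mvk*, mevalonate kinase, was at 21.2 and 12.0 in WT, 15 and 26.1 in Gcn2-/- and 13.2 and 5.65 in Atf4-/- livers. *Mvd*, the decarboxylase that follows, was at 17.2 and 7.31, 10.3 and 19.3, and 8.72 and 3.45, and all its lower bounds were 0. *Acat2*, which joins acetyl-CoA units, ranged from 8.17 in Atf4-/- ASNase to 31.1 in WT PBS. Their log2 responses in Atf4-/- livers lay between −1.31 and −1.20 and did not pass the limit. *Ggps1*, which sends farnesyl diphosphate to the longer isoprenoids and not to sterols, was at 2.27 and 2.97 in WT, 2.45 and 3.19 in Gcn2-/- and 2.31 and 3.28 in Atf4-/- livers. It was lowest in WT PBS and highest in Atf4-/- ASNase, and its intervals overlapped in every comparison. *Ggps1* shares exon bases with *Arid4b* (FPKM up to 8.32) on the opposite strand, and how reads were split was not tested.

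In the squalene and sterol steps, all 11 genes had a lower value after ASNase in Atf4-/- livers, 9 of them by over 2-fold, and 4 were called. *Tm7sf2* (chr19:6062821-6068373), a sterol C14 reductase, had an FPKM of 119 and 96.3 in WT, 108 and 64.9 in Gcn2-/- and 73.3 and 4.02 in Atf4-/- livers. It fell by 4.16 on the log2 scale in Atf4-/- livers, an 18.2-fold lower FPKM, and stood 70th from the lowest of the eligible genes. Its interval in Atf4-/- ASNase, 0 to 9.57, lay below those of the other 5 groups, the lowest of which began at 27.5. *Nsdhl*, a sterol dehydrogenase that acts in C4 demethylation, lay at 44.6 and 32.1, 36.9 and 41.0, and 26.5 and 4.37, a log2 response of −2.57 in Atf4-/- livers. *Dhcr7*, the reductase of the last step from 7-dehydrocholesterol, lay at 49.8 and 29.2, 38.4 and 65.2, and 39.8 and 7.07, a log2 response of −2.48. *Sc5d*, the C5 desaturase, lay at 305 and 203, 352 and 97.9, and 204 and 58.2, a log2 response of −1.81. For *Tm7sf2*, *Nsdhl* and *Dhcr7* the Atf4-/- ASNase value stood alone below the other 5 groups, and for *Sc5d* both knockout ASNase groups were low.

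Another 4 sterol genes had log2 differences past 1.5 in Atf4-/- livers, with intervals that overlapped. *Cyp51*, the lanosterol C14 demethylase, was at 49.8 under PBS (12.2 to 87.4) and 9.32 after ASNase (2.51 to 16.1), a log2 difference of −2.41. *Msmo1*, the C4 methyl oxidase, was at 143 and 29.7, *Fdft1*, squalene synthase, at 42.0 and 11.4, and *Hsd17b7*, a C3 ketoreductase of the pathway, at 17.1 and 5.57. *Hsd17b7* lay at 18.2 and 13.6 in WT and 15.8 and 20.8 in Gcn2-/- livers. *Fdft1* shares exon bases with *Ctsb*, a gene on the opposite strand with an FPKM up to 148. Reads of *Fdft1* may include reads of *Ctsb* if these libraries keep no strand, as was assumed from the library kit. *Tm7sf2* shares exon bases with *Vps51* (FPKM up to 13.2) and *Cyp51* with *Akap9* (up to 9.93), and how reads were split was not tested. *Ebp*, the sterol isomerase, was at 155 and 70.5 and *Lss*, which closes squalene epoxide into lanosterol, at 23.9 and 14.1. *Lss* lay at 31.4 and 26.5 in WT and at 31.5 and 52.6 in Gcn2-/- livers, highest in Gcn2-/- ASNase.

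*Sqle* (chr15:59315077-59331192), squalene epoxidase, a rate-limiting enzyme of the pathway, had the smallest Atf4-/- response among the 11 sterol genes. Its FPKM under PBS and after ASNase was 38.6 and 22.3 in WT, 30.8 and 89.7 in Gcn2-/-, and 29.8 and 25.2 in Atf4-/- livers. The Gcn2-/- ASNase value was higher than those of the other 5 groups. Its interval, 40.5 to 139, overlapped that of each PBS group and lay above those of the other ASNase groups. The Atf4-/- values lay close together, with intervals of 17 to 42.5 and 14.1 to 36.2 and a log2 difference of −0.24.

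Outside the chain of enzymes, *Acss2*, which makes acetyl-CoA from acetate, had an FPKM of 121 and 85.5 in WT, 80.6 and 32.0 in Gcn2-/- and 41.4 and 7.09 in Atf4-/- livers. Its log2 response in Atf4-/- livers was −2.53, but the intervals, 11.7 to 71.1 and 0 to 17.3, overlapped. *Acss2* shares exon bases with *Gss* (FPKM up to 62.7) on the opposite strand. *Stard4*, a sterol carrier of the cytosol, lay at 30.6 and 36.4, 42.6 and 17.8, and 32.2 and 7.30, and was called lower in Atf4-/- livers with a log2 response of −2.13. *Tmem97*, a sterol-responsive membrane protein, lay at 70.3 and 74.4, 70.0 and 62.9, and 57.0 and 51.4, and its intervals overlapped in every comparison.

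Among the 6 regulators, the Atf4-/- response was called for *Insig1* and not for *Srebf2*, *Mbtps1* or *Mbtps2*, while *Scap* and *Insig2* could not be called. *Insig1* (chr5:28071363-28078662), which retains SCAP in the endoplasmic reticulum and is itself a target of SREBP2, had an FPKM of 176 and 102 in WT, 185 and 102 in Gcn2-/- and 128 and 20.4 in Atf4-/- livers. It fell by 2.64 on the log2 scale in Atf4-/- livers, a 6.27-fold lower FPKM. Its interval in Atf4-/- ASNase, 11.9 to 28.9, lay below those of the other 5 groups, the lowest of which began at 43.6. *Insig2*, the other INSIG gene, lay at 246 and 174, 139 and 400, and 137 and 120, with lower bounds of 0 throughout and an upper bound of 1502 in Gcn2-/- ASNase. *Srebf2* itself lay at 11.9 and 9.58, 9.94 and 14.7, and 11 and 9.54, log2 responses of −0.31, 0.56 and −0.20. *Scap* lay at 51.7 and 48.9, 52.6 and 19.5, and 42.3 and 27.7, lowest in Gcn2-/- ASNase. *Mbtps1* kept within 15.1 to 16.9 and *Mbtps2* lay at 2.47 and 2.99, 2.67 and 2.89, and 2.87 and 3.64. The intervals of *Srebf2*, *Mbtps1* and *Mbtps2* overlapped in all 8 comparisons.

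**Figure D2:**
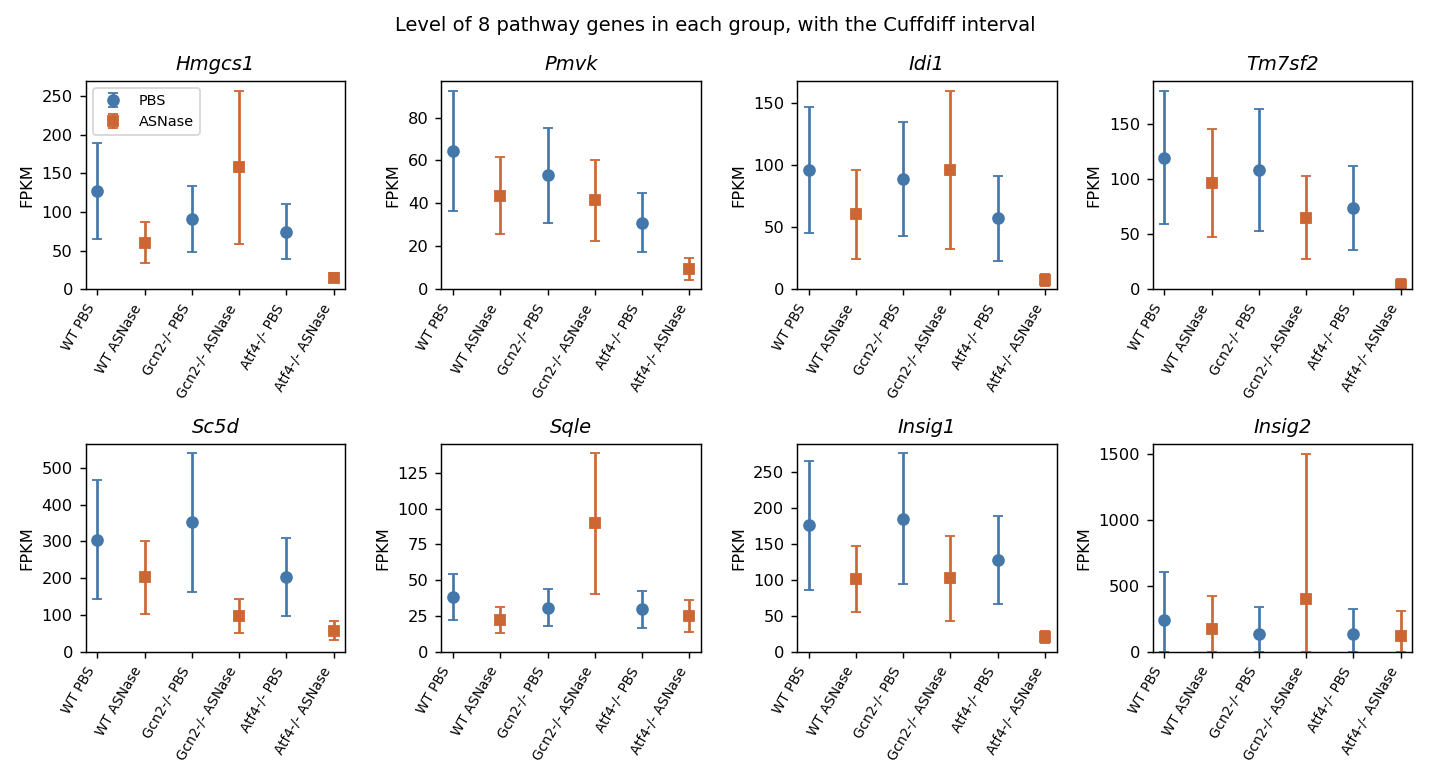
FPKM (linear axes starting at 0) of 8 pathway genes in the 6 groups, as points with the lower and upper bound of Cuffdiff as bars, 1 pooled value from 3 mice per group, PBS as circles and ASNase as squares. *Hmgcs1*, *Pmvk*, *Idi1*, *Tm7sf2* and *Insig1* have their lowest interval, separate from the other groups, in Atf4-/- ASNase, *Sc5d* is low in both knockout ASNase groups (97.9 and 58.2), *Sqle* is highest in Gcn2-/- ASNase (89.7), and the *Insig2* bars reach 0 in every group.

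In WT livers the same treatment gave lower values of most members, none of them past the limit. Of the 28 genes 0 were called, where 0.881% of the 9084 eligible genes were. Values were lower after ASNase for 23 of 28 genes (51% of eligible genes), with a median log2 difference of −0.49 beside −0.01 over the eligible genes. By over 2-fold lower were *Mvd* (−1.22) and *Hmgcs1* (−1.07), 2 of 28 beside 0.892% of the eligible genes. The 11 genes of the squalene and sterol steps all lay between −0.79 (*Sqle*) and −0.24 (*Lss*). The 5 genes with higher values were *Ggps1* (0.38), *Mbtps2* (0.27), *Stard4* (0.25), *Tmem97* (0.08) and *Mbtps1* (0.05). The intervals of all 28 genes overlapped between the WT groups. Overlap alone does not place a difference within its error, and the shared direction of most members was not tested. For *Sqle* the intervals were 22.5 to 54.7 under PBS and 13 to 31.6 after ASNase.

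In Gcn2-/- livers *Sc5d* was called lower, 1 gene of 28, where 3.69% of the 9218 eligible genes were called in either direction and 2.13% lower. It fell from 352 (163 to 540) to 97.9 (52.6 to 143), a 3.59-fold lower FPKM and a log2 response of −1.84, and stood 218th from the lowest of the eligible genes. Values were lower for 12 genes (48.5% of eligible genes) and higher for 16 (51.5%), and the median log2 difference of the 28 was 0.13, beside 0.02 over the eligible genes. *Scap* (−1.43), *Acss2* (−1.33), *Stard4* (−1.26) and *Sc5d* were lower by over 2-fold, 4 of 28 beside 7.77% of the eligible genes. *Sqle* (1.54) and *Insig2* (1.52) were higher by over 2-fold, 2 of 28 beside 6.35%, and neither was called because the intervals overlapped, by 17.9 to 43.6 against 40.5 to 139 for *Sqle*. Of the 8 mevalonate genes, 6 had higher values after ASNase, with differences up to 0.91 (*Mvd*), and *Pmvk* (−0.36) and *Acat2* (−0.25) had lower ones. Of the 11 sterol genes, 7 had higher values.

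**Figure D3:**
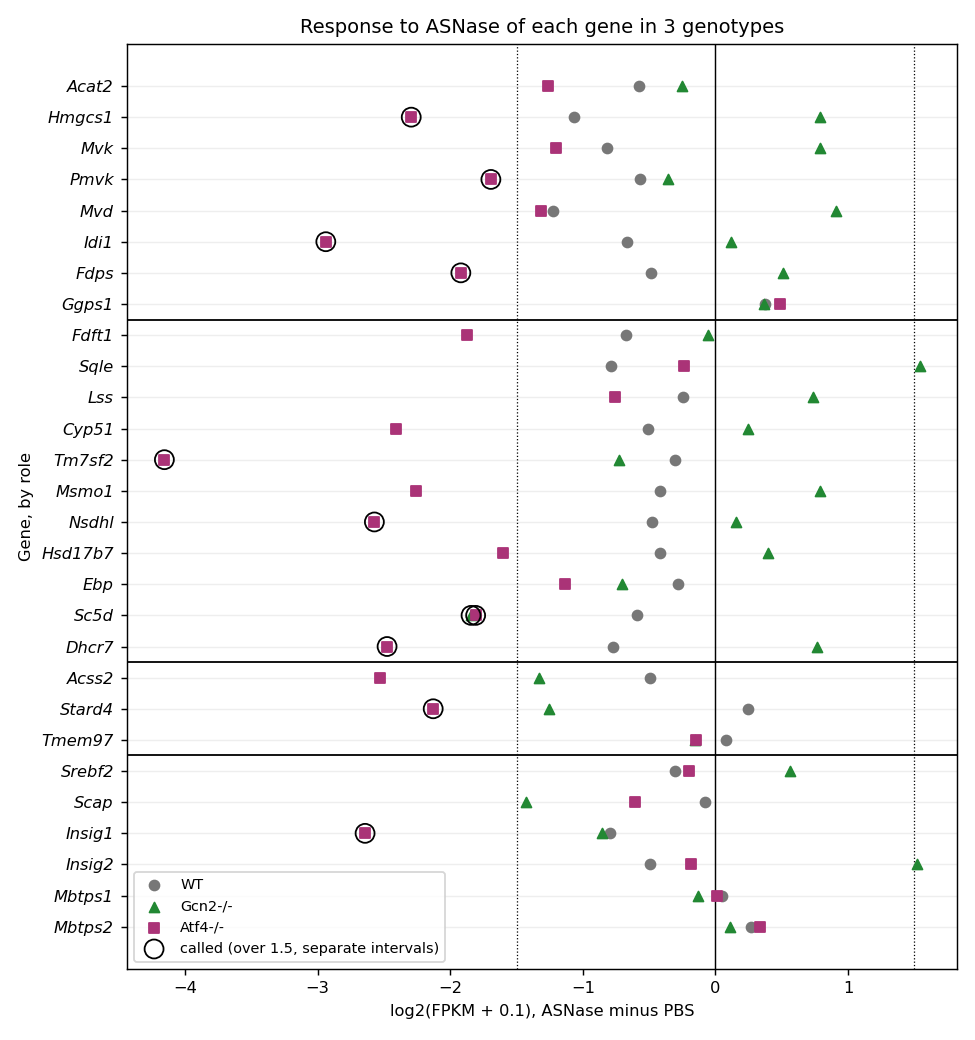
Log2(FPKM + 0.1) difference of ASNase minus PBS for each of the 28 genes (rows, by role) in WT, Gcn2-/- and Atf4-/- livers, 1 pooled value from 3 mice per group, with a ring around each response called and dotted lines at the limit of 1.5. The Atf4-/- points reach −4.16 (*Tm7sf2*), the Gcn2-/- points run from −1.84 (*Sc5d*) to 1.54 (*Sqle*), and the WT points from −1.22 (*Mvd*) to 0.38 (*Ggps1*).

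The responses of the 3 genotypes were set against each other gene by gene. A difference of log2 responses was counted when it was over 1.5 and over the combined error of its 4 values, a descriptive rule and not a test. Between Atf4-/- and WT livers it was counted for 5 of 28 genes, all lower, where 6.5% of 9698 eligible genes were counted and 4.35% lower. They were *Tm7sf2* (−3.85), *Stard4* (−2.38), *Idi1* (−2.27), *Nsdhl* (−2.10) and *Insig1* (−1.85). Between Gcn2-/- and WT livers it was counted for 1 of 28, *Sqle*, at 2.33, where 4.44% of 9523 eligible genes were counted and 2.09% higher. Between Atf4-/- and Gcn2-/- livers it was counted for 9 of 28 genes, all lower, where 3.61% of 9684 eligible genes were counted and 2.42% lower. They ran from −3.43 for *Tm7sf2*, −3.24 for *Dhcr7*, −3.08 for *Hmgcs1* and −3.05 for *Idi1* to −1.78 for *Sqle*, with *Nsdhl*, *Fdps*, *Hsd17b7* and *Insig1* between. Each pair of these differences shares the response of a genotype. The response of *Sc5d* was nearly the same size in both knockouts, −1.84 and −1.81, against −0.59 in WT livers.

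**Figure D4:**
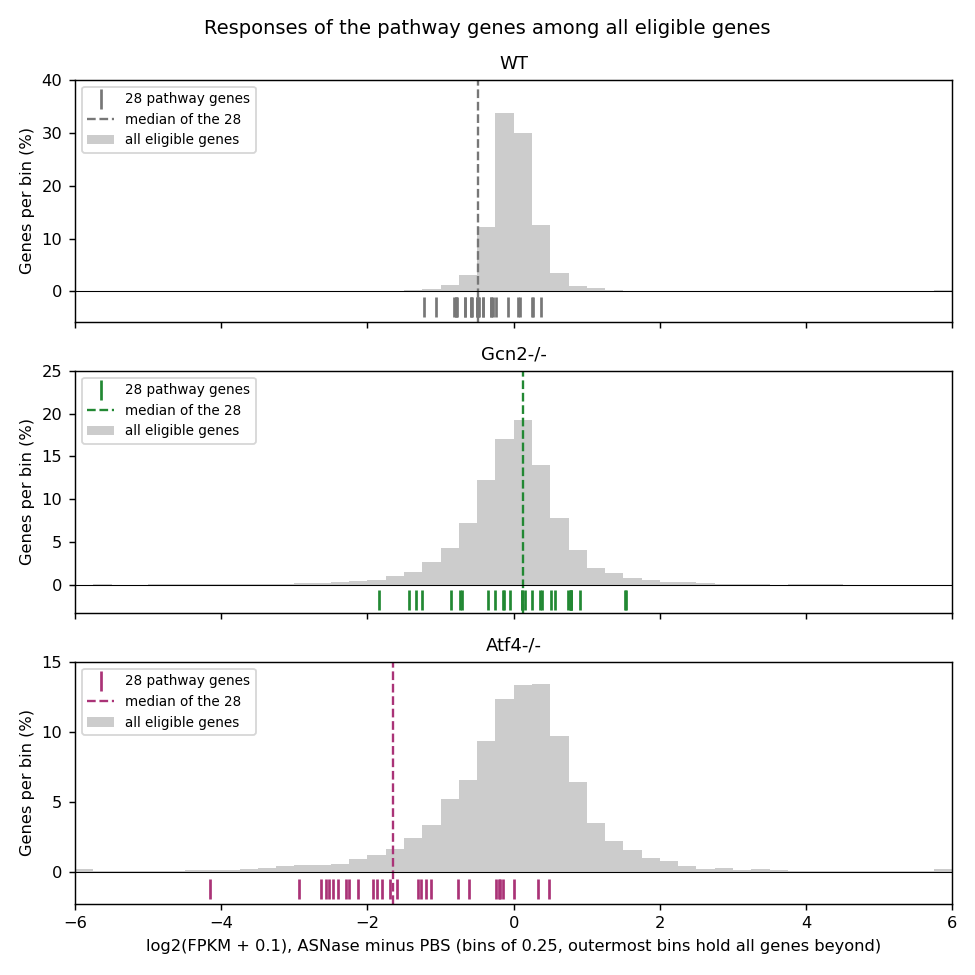
Share of eligible genes (grey bars, percent per bin of the log2(FPKM + 0.1) difference of ASNase minus PBS, outermost bins holding all genes beyond) with the 28 genes as ticks and their median as a dashed line, for WT, Gcn2-/- and Atf4-/- livers. The median of the 28 is −0.49 in WT, 0.13 in Gcn2-/- and −1.65 in Atf4-/- livers, while that of the eligible genes is −0.01, 0.02 and 0.08.

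Comparing genotypes after ASNase, 11 of the 28 genes were called lower in Atf4-/- than in WT livers and 0 higher, where 8.25% of the 9577 eligible genes were called and 5.66% lower. They were *Hmgcs1*, *Pmvk*, *Idi1* and *Fdps*, *Tm7sf2*, *Nsdhl*, *Sc5d* and *Dhcr7*, and *Acss2*, *Stard4* and *Insig1*. This comparison shares the Atf4-/- ASNase values with the Atf4-/- response, and the comparisons between genotypes after ASNase share groups with each other, as do those under PBS. *Acss2* was 12.1-fold lower (log2 −3.57, intervals 0 to 17.3 against 38.2 to 133), *Tm7sf2* 24-fold lower (−4.55), *Idi1* 8.20-fold lower (−3.02) and *Nsdhl* lower by 2.85 on the log2 scale. The median of the 28 was −1.54, beside 0.07 over the eligible genes, and 19 genes were lower by over 2-fold (14.1% of eligible genes). In Gcn2-/- against WT livers after ASNase, *Sqle* was called higher, 1 of 28, where 4.41% of the 9423 eligible genes were called and 1.83% higher. It was 4.02-fold higher, a log2 difference of 2.0, with intervals of 40.5 to 139 against 13 to 31.6. With *Sqle*, 6 genes were higher by over 2-fold (6.83% of eligible genes), the others being *Mvd* (1.39), *Hmgcs1* (1.38), *Insig2* (1.20), *Dhcr7* (1.16) and *Mvk* (1.11), and 4 were lower (8%), *Acss2* (−1.41), *Scap* (−1.32), *Sc5d* (−1.05) and *Stard4* (−1.03). The median of the 28 was 0.44, beside 0.05 over the eligible genes.

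Between the knockouts after ASNase, 11 genes were called lower in Atf4-/- than in Gcn2-/- livers, where 3.19% of the 9355 eligible genes were called and 2.29% lower. These were *Hmgcs1*, *Mvk*, *Pmvk*, *Idi1* and *Fdps* of the mevalonate steps, *Sqle*, *Tm7sf2*, *Nsdhl*, *Hsd17b7* and *Dhcr7* of the sterol steps, and *Insig1*. *Tm7sf2* stood 18th and *Idi1* 25th from the lowest of the eligible genes, at log2 differences of −3.98 and −3.69. Lower by over 2-fold were 21 of the 28 (8.17% of eligible genes), and the median was −2.00, beside 0.00 over the eligible genes. The genes with higher values in Atf4-/- livers were *Scap* (0.50), *Mbtps2* (0.32), *Mbtps1* (0.16) and *Ggps1* (0.04). *Sc5d*, low in both, differed by −0.75.

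Under PBS no member was called. In Gcn2-/- against WT livers 0 of 28 were called (1.04% of 8920 eligible genes), the median was −0.21 beside 0.06, and the differences ran from −0.82 (*Insig2*) to 0.48 (*Stard4*). In Atf4-/- against WT livers 0 were called (1.12% of 9039), the median was −0.49 beside 0.00, and 24 of 28 genes had the lower value in Atf4-/- livers (49.6% of eligible genes). *Acss2*, at 41.4 against 121, differed by −1.54 with overlapping intervals of 11.7 to 71.1 and 46.1 to 195, and *Pmvk*, at 31.0 against 64.6, by −1.06. These 2 of 28 were lower by over 2-fold, beside 2.07% of the eligible genes, and in Gcn2-/- livers 0 of the 28 differed by over 2-fold.

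Neighbouring pathways were described with lists of other genes. Of 12 genes of fatty acid synthesis and SREBP1, 3 were called lower after ASNase in Gcn2-/- livers, *Fads2*, *Fads1* and *Me1* (median of the list −0.94), 2 in Atf4-/- livers, *Fads2* and *Fads1* (−1.37), and 0 in WT livers (−0.20). Over all eligible genes, 2.13%, 4.63% and 0.881% were called (lower in the first 2, either way in WT), with medians of 0.02, 0.08 and −0.01. The desaturase gene *Fads2* was at 302 and 378 in WT, 513 and 67.2 in Gcn2-/- and 181 and 14.3 in Atf4-/- livers. The medians of the 28 cholesterol genes in the same Gcn2-/- and Atf4-/- responses were 0.13 and −1.65. Of 11 genes of the isoprenoid branches (dolichol, ubiquinone and protein prenylation) and 9 genes of sterol-regulated degradation in the endoplasmic reticulum, 0 were called in any of the 8 comparisons. Over all eligible genes, 0.881% to 8.25% were called per comparison, and for lists this short 0 lies near these shares. The medians of both lists in the Atf4-/- response were 0.14 and 0.24, beside 0.08 over all eligible genes. Of 14 genes of cholesterol esterification, efflux and trafficking, *Soat2* was called in the Atf4-/- response (1 gene, beside 2.74% of all eligible genes called higher) and 0 in the other responses. This gene of the enzyme that esterifies cholesterol in hepatocytes rose in Atf4-/- livers from 17.2 to 103, a log2 response of 2.58, and lay between 17.8 and 26 in the WT and Gcn2-/- groups.

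Markers of other tissues and cells moved with some groups. Of 12 hepatocyte markers none was at 0, and those with an estimate were at an FPKM of 145 or more in every group. Their median log2 response was −0.57 in Atf4-/- livers (10 with an estimate in both groups), −0.32 in Gcn2-/- (11) and −0.19 in WT livers (12), with 0 called. The 6 pancreatic acinar markers summed to 297 FPKM in Atf4-/- ASNase and 50.4 in WT ASNase livers, against 4.94 to 14 in the other 4 groups. Among the defining genes of that list, *Cpa1*, *Pnlip* and *Prss2* were at 0 in both Gcn2-/- groups and above 0 in the other 4 groups. The 6 adrenal cortex markers summed to 11.3 in WT ASNase and 0.789 to 1.79 elsewhere, and 9 skeletal muscle markers to 825 and 1185 in WT, 5.78 and 8.85 in Gcn2-/- and 65.9 and 143 in Atf4-/- livers. The 7 Kupffer cell markers summed to 130 to 270, and in the Atf4-/- response their median was −1.10 with *Cd5l* called lower and *Marco* higher. In the same response 5 B cell markers had a median of −2.35, and only 1 of them, *Ighm*, passed the FPKM limit and was called lower. The median FPKM of these 5 was 1.06 under PBS and 0.082 after ASNase, so this response rests on genes near the floor. The 5 stellate cell markers had a median response of −1.31 (*Col3a1* called lower), with 4 lower and 1 higher. By over 2-fold, 2 were lower and 1 higher. Their sum was 126 under PBS and 115 after ASNase in Atf4-/- livers, and the largest single value was 110 and 104. The median FPKM of 8 adipose markers lay between 0.274 (Gcn2-/- ASNase) and 3.60 (WT ASNase). Their sum was 1789 and 1226 in WT, 740 and 94.9 in Gcn2-/- and 662 and 41.2 in Atf4-/- livers, most of it from 1 marker in each group. The largest single value was 640 in Atf4-/- PBS and 33.6 in Atf4-/- ASNase livers. The sums do not describe the list as a whole. Its median log2 response was 0.36 in WT (3 lower, 5 higher), −0.29 in Gcn2-/- (5 lower, 2 higher) and 0.23 in Atf4-/- livers (3 lower, 5 higher). *Car3* and *Fabp4* were called in the Gcn2-/- response, 1 lower and 1 higher, and *Car3* was called lower in the Atf4-/- response. The part of these markers in the differences of the pathway genes was not tested.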

How the data were processed

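Livers of 18 mice in 6 groups of 3 were grouped by the sample labels. Per the labels and methods, the authors sequenced poly-A libraries, made with a TruSeq RNA kit, from a single end. They used TopHat and Bowtie for alignment to mm10, Cufflinks and Cuffmerge for assembly, and Cuffdiff for abundance. The libraries were taken to be unstranded from the kit named. The deposited table holds FPKM values, which the authors estimated per group with bounds in FPKM and a status. The FPKM scale removes differences in depth between libraries, and counts and depth per gene are not given in it, so precision rests on the bounds. Of all values, 160 were not OK. The members and lists were chosen with earlier results of these data known. Groups were compared on log2(FPKM + 0.1) under the limits given in the report, among all genes of the table. The rule was run on simulated data only for changes far past the limit, in genes of middling FPKM with intervals of limited width. That run therefore does not show how the rule performs for smaller changes or for genes with wide intervals. Linear models on single libraries could not be fitted, and no p-value was computed. Values are given in every group for members called in at least 1 comparison and for the highest and lowest response of each role, and other members by range, count or example. Alternatives were pseudocounts of 1 and 0.01, no filter on low FPKM, a log2 limit of 1, other conditions on the intervals and rescaling by median ratios. Positions are of the GENCODE annotation on GRCm38, matched by Ensembl identifier. Python 3.11.15, pandas 2.3.3 and numpy 2.4.6 were used.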

Additional observations from a re-analysis of the deposited data

How the results depend on the processing

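Without a condition on the intervals, the genes called of the 28 came to 3 in place of 1 in the Gcn2-/- response, to 18 in place of 11 in Atf4-/- against Gcn2-/- livers after ASNase, and to 1 in place of 0 in Atf4-/- against WT livers under PBS. With a combined interval, 2 genes were called in the Gcn2-/- response. In these cases the interval condition alone keeps the added genes from being called. Under all settings, 10 to 15 genes were called in the Atf4-/- response and 11 to 15 in Atf4-/- against WT livers after ASNase. Rescaling by median ratios, with multipliers between 0.974 and 1.02, changed no direction or call of the genes named with a call. The intervals limit what can be called, most of all for *Mvd*, *Fdft1*, *Lss*, *Scap* and *Insig2*. No paired analysis was possible because the table holds 1 pooled value per group, and for the same reason no replicate could be left out.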

Other observations

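Ratios of FPKM within a group were also taken, as values with no test. *Insig2* over *Insig1* was 1.40 and 1.72 in WT, 0.751 and 3.91 in Gcn2-/- and 1.07 and 5.88 in Atf4-/- livers (PBS before ASNase), so that the ratio was highest in both knockout ASNase groups. The bounds of *Insig2* were wide in every group, with half-widths of 139% to 275% of the value. In Atf4-/- livers *Insig1* lay at 128 and 20.4 and *Insig2* at 137 and 120. *Sqle* over *Fdft1*, the next and the preceding enzyme around squalene, was 0.709 and 0.653, 0.574 and 1.74, and 0.709 and 2.21. The bounds of *Fdft1* were also wide, with lower bounds of 0 in every group and half-widths of 130% to 185% of the value. *Sc5d* over *Dhcr7*, the last steps of the chain listed here, was 6.12 and 6.95, 9.16 and 1.5, and 5.13 and 8.24, lowest in Gcn2-/- ASNase livers. The 10 genes with the highest FPKM took 32.4% of the summed FPKM in Atf4-/- ASNase and 23% to 28.4% in the other groups.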
